A study of Rattus norvegicus with 12 samples.

Results

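The excitation-contraction coupling genes are those whose products turn an electrical signal at the muscle membrane into calcium release inside the fibre. The 10 genes chosen by name were *Stac3*, *Ryr1*, *Cacna1s*, *Cacng1*, *Jph1*, *Jph2*, *Casq1*, *Casq2*, *Atp2a1* and *Trdn*. Probes were assigned to them by the RefSeq accession of each probe, without its version, among 16581 genes named on the array. A probe was found for 9 of the 10 genes, and 8 had a probe with enough signal to be tested. No probe matched *Ryr1*, and the probe of *Jph1* was well above background on 0 of 12 arrays.

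L6 cells come from rat skeletal muscle, grow as myoblasts and fuse to form myotubes when they differentiate. After 6 days of differentiation by the sample labels, the myotubes were exposed for 24 h to 1 of 3 compounds at 60 µM, dissolved in DMSO, or to DMSO alone as the control. The compounds were GR24, a synthetic analog of the plant hormones called strigolactones, and the plant stilbenes pinosylvin and resveratrol. RNA was measured on 12 Agilent arrays of 1 colour, 3 per group, with replicates 1 and 2 of each group on 1 slide and replicate 3 on another. The cells were of 1 line in culture, without nerve or load, and every group received DMSO.

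In skeletal muscle an action potential runs down the T-tubules, infoldings of the surface membrane, and is sensed there by a voltage-gated calcium channel. That channel is coupled to the ryanodine receptor, the release channel of the sarcoplasmic reticulum, at junctions called triads, so that calcium flows out and the sarcomeres contract. Calcium-binding proteins hold the store inside the reticulum, and a calcium pump refills it and ends the contraction.

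Levels are log2 signals relative to the 75th percentile of their own array, so that 0 is the level of that percentile and each step of 1 is a doubling. Per array, 58.0% to 64.3% of 58717 spots were well above background, and 0 spots were saturated. With 3 arrays in a group, the number of arrays sets how precise each value is. Differences were tested with limma over 24279 probes, with Benjamini-Hochberg adjusted p-values and a threshold of 0.05. Where a gene had several probes, the one brightest on average across the 12 arrays stood for it. Between replicates, the standard deviations of the members' levels within a group ran from 0.030 to 0.26.

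Of the 8 members tested, 7 were lower with GR24 than in the control and 0 were higher, where 25.5% of all tested probes were lower and 31.5% were higher. For the same 7 genes every GR24 array lay below every control array, as it did for 27.2% of all tested probes. The median log2 fold change of the members was -1.58, and that of all tested probes was 0.027. In cultures measured in bulk, fewer cells of a type and less RNA per cell cannot be told apart. The member that did not pass the threshold was *Casq1*.

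*Stac3* encodes an adaptor protein that binds the voltage-sensing channel and is needed for its coupling to the release channel. Its level (probe A_44_P1045734) was 1.14, 1.24 and 1.09 on the control arrays, -3.99, -3.93 and -4.25 with GR24, 2.08, 1.92 and 1.81 with pinosylvin, and 0.41, 0.53 and 0.28 with resveratrol. The 4 groups did not overlap, with pinosylvin above the control, resveratrol under it and GR24 far under all others. In processed signal before scaling, the control arrays read 2142, 1730 and 2210 units and the GR24 arrays 54.5, 54.8 and 51.9 units, still well above background on all 3. The signal was 37.2-fold lower with GR24 than in the control, a log2 fold change with a 95% confidence interval of -5.45 to -4.98 (limma, adjusted p = 2.4e-10). Against -5.22 here, the log2 fold change of *Stac3* for GR24 minus control was -5.18 with quantile normalization, -3.82 with normexp of the median signal and the 75th percentile, -3.78 with normexp and quantile normalization and -4.34 in the deposited series table. The size of the decrease thus differed with the signal column and its background correction, and its call did not. With pinosylvin the log2 fold change was 0.78 (95% confidence interval 0.54 to 1.02, adjusted p = 0.00071 by limma), and with resveratrol it was -0.75 (-0.99 to -0.51, adjusted p = 0.000925).

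*Cacna1s* encodes the pore-forming and voltage-sensing subunit of the skeletal muscle calcium channel. Its level (probe A_44_P1085133) was 1.12, 0.93 and 0.79 in the control, -0.48, -0.37 and -0.59 with GR24, 1.39, 1.41 and 1.25 with pinosylvin, and 0.82, 0.67 and 0.60 with resveratrol. GR24 was under all other arrays and pinosylvin above all others, whereas resveratrol overlapped the control. The signal was 2.69-fold lower with GR24 than in the control (log2 interval -1.65 to -1.20, limma adjusted p = 8.3e-07). *Cacng1* encodes the gamma subunit of the same channel, and its level (probe A_64_P064820) was 2.94, 2.95 and 2.53 in the control and 0.61, 0.48 and 0.42 with GR24. It was 3.08, 3.09 and 2.78 with pinosylvin and 2.35, 2.43 and 2.08 with resveratrol. Here pinosylvin overlapped the control, and resveratrol lay between the control and GR24 without touching either. The signal was 4.92-fold lower with GR24 (log2 interval -2.61 to -1.99, limma adjusted p = 2.65e-07).

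Junctophilins tether the T-tubule to the sarcoplasmic reticulum, and triadin, the product of *Trdn*, sits in the membrane of the reticulum beside the release channel. *Jph1* is the junctophilin best known from skeletal muscle, and its probe (A_64_P076555) read 6.13 to 13.9 units of processed signal on the control arrays, not above background, so no change is given for it. *Jph2* (probe A_64_P029407) had levels of 1.15, 1.27 and 0.92 in the control, 0.046, -0.061 and -0.088 with GR24, 1.39, 1.53 and 1.22 with pinosylvin, and 1.24, 1.15 and 0.98 with resveratrol. The GR24 arrays stood apart, and the other 3 groups overlapped. *Jph2* was 2.22-fold lower with GR24 than in the control (log2 interval -1.40 to -0.90, limma adjusted p = 9.52e-06).

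*Trdn* (probe A_44_P123550) had levels of -1.73, -1.58 and -1.88 in the control, -3.36, -3.43 and -3.58 with GR24, -1.75, -1.70 and -2.18 with pinosylvin, and -2.28, -2.05 and -2.37 with resveratrol. All GR24 arrays were under all others, the resveratrol arrays were under the control arrays, and pinosylvin replicate 3 fell among the resveratrol arrays. The signal was 3.31-fold lower with GR24 than in the control (log2 interval -2.04 to -1.42, limma adjusted p = 2.28e-06). The log2 fold change of -1.73 was -1.11 with normexp and quantile normalization and -1.14 with normexp and the 75th percentile. A dimmer probe of *Trdn* (A_44_P191715), well above background on all 3 control arrays and on 1 of 3 GR24 arrays, had a log2 fold change of -1.07 (interval -1.80 to -0.34, limma adjusted p = 0.0168). That probe did not pass the threshold in the other 5 comparisons, where its log2 fold changes ran from -0.71 to 0.098.

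Calsequestrin binds calcium inside the reticulum, with *Casq1* as the form of fast fibres and *Casq2* as the form of the heart and slow fibres. *Casq1* (probe A_64_P145878) had levels of 0.38, 0.23 and 0.089 in the control, 0.23, 0.11 and 0.012 with GR24, 0.45, 0.45 and 0.30 with pinosylvin, and 0.024, 0.19 and -0.13 with resveratrol. The GR24 and control arrays overlapped, with a log2 fold change of -0.12 (95% confidence interval -0.35 to 0.12, limma adjusted p = 0.387). An increase or decrease within that interval was not told from 0. *Casq2* (probe A_64_P144869) had levels of 6.92, 7.22 and 7.12 in the control, 6.29, 6.38 and 6.36 with GR24, 6.97, 7.13 and 7.19 with pinosylvin, and 6.85, 6.85 and 6.90 with resveratrol. Its GR24 arrays were under all others, the resveratrol arrays were next, and pinosylvin overlapped the control. *Casq2* was 1.67-fold lower with GR24 than in the control (log2 interval -0.94 to -0.55, limma adjusted p = 3.5e-05).

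*Atp2a1* encodes SERCA1, the calcium pump of fast muscle fibres. Its level (probe A_64_P125978) was 3.95, 3.96 and 3.83 in the control, 2.05, 1.90 and 1.89 with GR24, 4.35, 4.26 and 4.30 with pinosylvin, and 3.34, 3.30 and 3.17 with resveratrol. As with *Stac3*, the 4 groups did not overlap and came in the order pinosylvin, control, resveratrol and GR24 from high to low. The signal was 3.91-fold lower with GR24 than in the control (log2 interval -2.13 to -1.81, limma adjusted p = 7.8e-09).

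**Figure D1:**
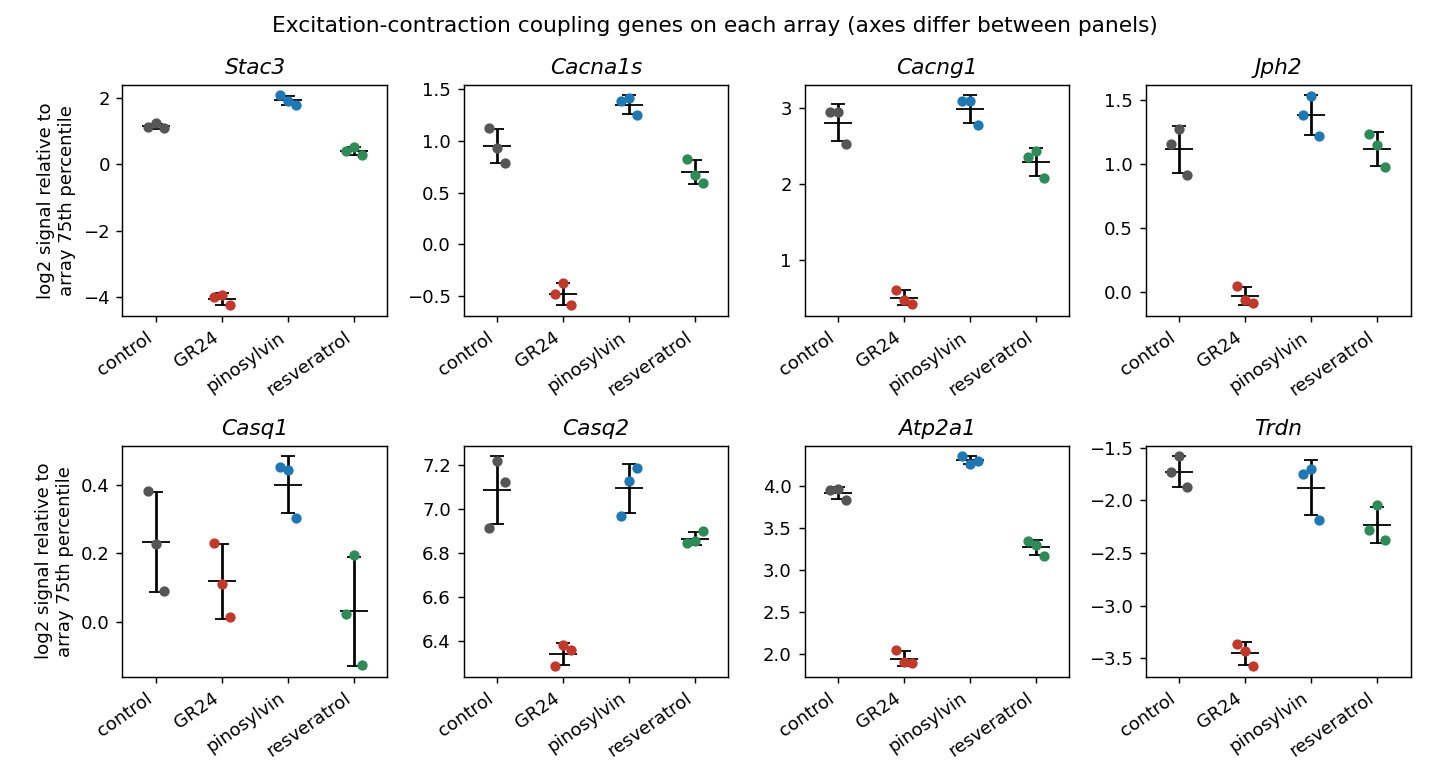
Level of each tested member on each of the 12 arrays, as log2 signal relative to the 75th percentile of the array, with 3 points per group, a line at the mean and bars of 1 standard deviation. The GR24 arrays lie under all others except for *Casq1*, and *Stac3* falls from between 1.09 and 1.24 in the control to between -4.25 and -3.93 with GR24.

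All 4 groups were present on both slides, which allowed the comparison within each. The log2 fold change of *Stac3* between GR24 and the control was -5.15 on slide 1 and -5.34 on slide 2. For *Atp2a1* it was -1.98 on slide 1 and -1.94 on slide 2, for *Trdn* -1.74 and -1.70, and for *Casq2* -0.73 and -0.76. Larger gaps between the slides were seen for *Cacng1*, with -2.40 and -2.10, and for *Jph2*, with -1.22 and -1.01. *Cacna1s* had -1.45 and -1.38, so the 7 decreases were present on each slide. Slide 2 held 1 array per group, so its values have no test. All 7 calls held under each of the 27 alternatives that gave a test.

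The comparison of pinosylvin with the control asked whether a stilbene at the same dose and time changed these genes. Of the 8 members tested, 3 were higher with pinosylvin and 0 were lower, where 8.28% of all tested probes were higher and 8.27% were lower. The higher probes, 2010 in number, were 1236 without pinosylvin replicate 2. The pinosylvin arrays lay above all control arrays for the same 3 genes, as for 19.0% of all tested probes. The median log2 fold change of the members was 0.22, and that of all tested probes was 0.054. The increases were those of *Stac3*, given above, of *Atp2a1*, with a log2 fold change of 0.39 (interval 0.23 to 0.55, limma adjusted p = 0.00454), and of *Cacna1s*, with 0.40 (0.18 to 0.63, adjusted p = 0.0217). Of the other members, *Jph2* had 0.27 (0.016 to 0.52, adjusted p = 0.144), *Cacng1* 0.18 (-0.13 to 0.49) and *Casq1* 0.17 (-0.065 to 0.40). *Casq2* and *Trdn* had intervals of -0.19 to 0.20 and -0.46 to 0.16 around log2 fold changes of 0.0082 and -0.15. With the replicate number as a block, *Jph2* also passed the threshold (limma adjusted p = 0.0247, range over its alternatives 0.0168 to 0.393), which made 4 genes, while the share of all tested probes past the threshold rose from 16.6% to 28.6%. The call of *Cacna1s* was lost with no filter on dim probes (adjusted p = 0.0756), with only the 6 arrays compared (0.0722), and without control replicate 2 (0.0573), control replicate 3 (0.0738), pinosylvin replicate 1 (0.0717) or pinosylvin replicate 2 (0.0798), with a range over its alternatives of 0.00166 to 0.0798.

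Against the control, 4 of the 8 tested members were lower with resveratrol and 0 were higher, where 8.99% of all tested probes were lower and 7.99% were higher. The lower probes, 2182 in number, were 1546 without control replicate 1, and the higher probes, 1941 in number, were 1192 without resveratrol replicate 1. The resveratrol arrays lay below all control arrays for 5 members, as for 15.4% of all tested probes. The median log2 fold change of the members was -0.38, and that of all tested probes was 0.010. *Stac3* and *Atp2a1* had the decreases with the smallest p-values, and that of *Atp2a1* was -0.64 (interval -0.81 to -0.48, limma adjusted p = 0.000233). *Cacng1* had -0.51 (-0.83 to -0.20, adjusted p = 0.0305) and *Trdn* had -0.51 (-0.82 to -0.19, adjusted p = 0.0326). *Casq2* did not overlap between the groups but missed the threshold, with -0.22 (-0.41 to -0.027, adjusted p = 0.119). *Cacna1s* had -0.25 (-0.48 to -0.027, adjusted p = 0.124) and *Casq1* had -0.20 (-0.44 to 0.030). With the slide as a block *Casq1* passed (limma adjusted p = 0.0413), and with the replicate number as a block it did not (0.0526). The log2 fold change of *Jph2* was 0.0055, with an interval of -0.25 to 0.26, and its sign was not stable.

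With the replicate number as a block, *Cacna1s* (limma adjusted p = 0.0213, range over its alternatives 0.0174 to 0.362) and *Casq2* (0.0298, range 0.0298 to 0.334) also passed for resveratrol against the control, which made 6 genes, while the share of all tested probes past the threshold rose from 17.0% to 27.9%. The calls of *Cacng1* and *Trdn* were both lost without control replicate 1 (adjusted p = 0.107 and 0.0849), control replicate 2 (0.107 and 0.113), resveratrol replicate 1 (0.0626 and 0.0959) or resveratrol replicate 3 (0.104 and 0.106), and with no filter on dim probes (0.0846 and 0.0895). That of *Cacng1* was also lost with only the 6 arrays compared (0.0869). That of *Trdn* was also lost with quantile normalization (0.0951), normexp and the 75th percentile (0.0527), normexp and quantile normalization (0.097), the deposited table (0.11) and the mean over its probes (0.0584). Over their alternatives these p-values ran from 0.000493 to 0.107 for *Cacng1* and from 0.0018 to 0.113 for *Trdn*. Without control replicate 1, *Casq2* passed (0.0417), so that 3 genes were past the threshold, and without each of the other 3 arrays in turn 2 genes were.

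Pinosylvin and resveratrol are stilbenes that differ by a hydroxyl group, which resveratrol has in addition, and both were given at 60 µM for 24 h. In the direct comparison, 5 of the 8 tested members were higher with pinosylvin than with resveratrol and 0 were lower, where 7.68% of all tested probes were higher and 6.85% were lower. These 1864 and 1664 probes were 1086 and 1062 without pinosylvin replicate 2. For 6 members every pinosylvin array lay above every resveratrol array, as for 17.9% of all tested probes. The median log2 fold change of the members was 0.51, and that of all tested probes was 0.022. *Stac3* was 2.89-fold higher with pinosylvin, with a log2 fold change of 1.53 (interval 1.29 to 1.77, limma adjusted p = 2.32e-05). *Atp2a1* was 2.05-fold higher, with 1.04 (0.87 to 1.20, adjusted p = 2.33e-05). These were the members with the clearest separation of the compounds. The channel subunits *Cacng1* and *Cacna1s* had 0.69 (0.38 to 1.00, adjusted p = 0.00851) and 0.65 (0.43 to 0.88, adjusted p = 0.002), and *Casq1* had 0.37 (0.14 to 0.60, adjusted p = 0.0404). On slides 1 and 2, *Stac3* had 1.53 and 1.52, and *Atp2a1* had 0.99 and 1.13.

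A difference between the stilbenes was not shown at the threshold for *Trdn*, with 0.36 (interval 0.045 to 0.67, limma adjusted p = 0.125), *Jph2*, with 0.26 (0.010 to 0.51, adjusted p = 0.161), or *Casq2*, with 0.23 (0.035 to 0.42, adjusted p = 0.114). Their intervals lie above 0, so these values do not show that the compounds act alike on them. With the replicate number as a block, *Trdn* (adjusted p = 0.0134, range over its alternatives 0.0125 to 0.516), *Jph2* (0.0293, range 0.0205 to 0.432) and *Casq2* (0.028, range 0.028 to 0.606) passed as well, which made all 8 tested members higher with pinosylvin, while the share of all tested probes past the threshold rose from 14.5% to 26.0%. Without pinosylvin replicate 3, *Trdn* passed also with no block (0.0271). The call of *Casq1* was lost without control replicate 2 (0.0539), GR24 replicate 2 (0.0562), pinosylvin replicate 1 (0.113), 2 (0.123) or 3 (0.0516), or resveratrol replicate 1 (0.0936) or 3 (0.136), and with no filter on dim probes (0.119), only the 6 arrays compared (0.0752) or only slide 1 (0.0636), with a range over its alternatives of 0.00294 to 0.136.

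GR24 was also set against each stilbene at the same dose and time. Against pinosylvin, 8 of the 8 tested members were lower with GR24, where 26.8% of all tested probes were lower and 29.6% were higher, and the members' median log2 fold change was -1.70 beside -0.0031 for all tested probes. *Stac3* was 63.8-fold lower (log2 interval -6.23 to -5.76, limma adjusted p = 1.56e-10) and *Cacng1* 5.57-fold lower (adjusted p = 1.91e-07). Over the alternatives with a test, the log2 fold change of *Stac3* here, -6.00, ran from -6.06 to -4.48, and its call held. *Casq1* had the smallest difference, -0.28 (interval -0.52 to -0.050, adjusted p = 0.0403). This call of *Casq1* was lost without control replicate 2 (adjusted p = 0.0527), GR24 replicate 2 (0.0885) or 3 (0.12), pinosylvin replicate 1 (0.109) or 2 (0.106), or resveratrol replicate 1 (0.0544), and with no filter on dim probes (0.107) or the percentile over all spots (0.0802, with a log2 fold change of -0.20), with a range over its alternatives of 0.0032 to 0.12.

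Against resveratrol, 7 members were lower with GR24 and 0 were higher, where 23.9% of all tested probes were lower and 27.4% were higher. The members' median was -1.20 beside 0.024 for all tested probes. *Stac3* was 22.1-fold lower (log2 interval -4.70 to -4.23, limma adjusted p = 1.07e-09), *Cacng1* 3.45-fold lower (adjusted p = 2.58e-06) and *Atp2a1* 2.50-fold lower (adjusted p = 2.14e-07). The log2 fold change of *Stac3* against resveratrol, -4.47, ran from -4.53 to -3.04 over the alternatives with a test, and its call held. *Casq1* again stood aside, with 0.088 (interval -0.15 to 0.32, adjusted p = 0.533). The split over all tested probes, 6662 higher and 5811 lower, became 8581 higher and 4897 lower with the percentile taken over all spots, the scaling first used, which was replaced after seeing the data. That scaling moved the median of all tested probes from 0.024 to 0.13, and from 0.027 to 0.12 for GR24 against the control, and the 7 members were called lower in both comparisons with it too.

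**Figure D2:**
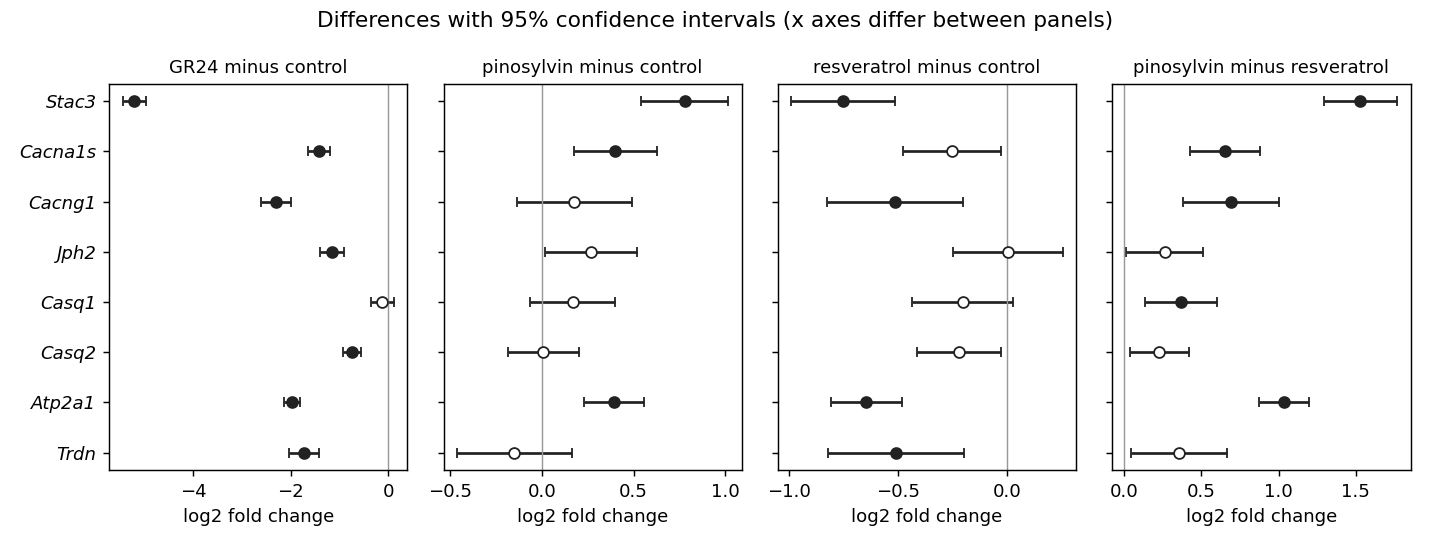
Log2 fold change of each tested member in 4 comparisons, with bars for the 95% confidence interval and filled points for an adjusted p under 0.05 by limma. The x axes differ between panels. *Stac3* has the largest change of the members in each panel, from -5.22 for GR24 to 0.78 for pinosylvin and -0.75 for resveratrol against the control.

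Set side by side, the group means of the members fell in much the same order. Pinosylvin had the highest mean for 7 of 8 members, with the control highest for *Trdn*. GR24 had the lowest mean for 7 of 8, with resveratrol lowest for *Casq1*. The resveratrol mean was below the control mean for 7 of 8, with *Jph2* as the exception at a difference of 0.0055. The full order of pinosylvin, control, resveratrol and GR24 was found for 5 members, and neighbours in it did not always differ beyond their spread, as between pinosylvin and the control for *Cacng1* and *Casq2*. These comparisons share arrays, so the order was not counted as separate evidence for any of them.

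A mean profile of the members over the 12 arrays was made by scaling each of the 8 genes to its own mean and standard deviation. The Pearson correlation of each member with this profile, which contains it, was 0.59 for *Casq1* and 0.93 for *Casq2*. It was 0.97 for *Jph2* and *Trdn*, 0.98 for *Stac3* and 0.99 for *Cacna1s*, *Cacng1* and *Atp2a1*. *Casq1* thus varied least like the rest. Among 9768 other genes compared, the 5 most like the profile over the 12 arrays included *Antxr1* (r = 0.996), *H19* (0.995), *Cdh15* (0.995) and *Myh3* (0.994). *Cdh15* and *Myh3* are also among the markers read further on. The 12 arrays fall into 4 groups, so r mostly reflects the differences between groups, and no p is given. The mean level of *Antxr1* was 1.80 in the control, 0.79 with GR24, 1.98 with pinosylvin and 1.49 with resveratrol, and that of *H19* was 7.91, 6.86, 8.07 and 7.64.

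Since most members moved together, the 250 bases before the start of each gene were read from RefSeq promoter sequences of the rat assembly GRCr8, which held 8 of the 10 members. *Cacng1* and *Jph1* were not among them. Both strands were searched for the E-box CANNTG, which basic helix-loop-helix factors bind, for its forms CAGCTG and CAGGTG known from muscle genes, for the MEF2 box, for the CArG box and for the antioxidant response element TGACNNNGC. The form CAGCTG was present in *Stac3*, *Cacna1s*, *Casq1* and *Atp2a1*, which is 4 of 8 members against 12% of 33465 promoters. CAGGTG was present in *Casq1* only, against 15.9% of all promoters, and the general CANNTG, which overlaps both forms, in 6 of 8 members against 65.5%. A MEF2 box was found in *Casq2* (2.96% of all promoters), a CArG box in 0 of 8 (1.5%), and the antioxidant response element in *Jph2* and *Casq1* (10.1%).

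The promoters of the 4 members with CAGCTG are shown because 3 of these genes fell with GR24 and the fourth, *Casq1*, was not told from the control. Each is written 5′ to 3′ on the strand of its gene and ends at the base before the start. Capitals mark the muscle forms of the E-box and the antioxidant response element, on either strand.
Stac3 (chr7:65228225-65228474, plus strand): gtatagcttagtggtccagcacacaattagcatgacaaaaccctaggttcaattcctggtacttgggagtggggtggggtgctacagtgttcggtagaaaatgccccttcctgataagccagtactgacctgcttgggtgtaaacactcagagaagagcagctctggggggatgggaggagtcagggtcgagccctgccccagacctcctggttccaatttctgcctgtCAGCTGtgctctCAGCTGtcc
Cacna1s (chr13:50045418-50045667, plus strand): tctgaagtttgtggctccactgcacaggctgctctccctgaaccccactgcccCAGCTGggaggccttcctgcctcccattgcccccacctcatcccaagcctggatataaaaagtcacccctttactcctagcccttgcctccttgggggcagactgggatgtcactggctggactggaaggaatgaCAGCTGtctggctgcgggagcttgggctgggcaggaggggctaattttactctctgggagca
Atp2a1 (chr1:190475411-190475660, minus strand): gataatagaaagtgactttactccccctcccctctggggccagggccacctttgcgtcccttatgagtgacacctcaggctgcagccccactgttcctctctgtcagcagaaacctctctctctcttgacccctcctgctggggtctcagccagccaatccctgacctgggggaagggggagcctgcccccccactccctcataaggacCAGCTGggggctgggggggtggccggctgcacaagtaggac
Casq1 (chr13:87212711-87212960, minus strand): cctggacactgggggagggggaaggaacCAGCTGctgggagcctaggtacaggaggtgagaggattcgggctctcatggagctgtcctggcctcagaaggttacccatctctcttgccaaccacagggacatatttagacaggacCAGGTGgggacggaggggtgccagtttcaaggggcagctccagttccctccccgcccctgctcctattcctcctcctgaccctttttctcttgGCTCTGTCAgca
In *Stac3* the matches lay close to the start, at 21 to 16 and 9 to 4 bases before it. In *Cacna1s* they lay at 197 to 192 and 62 to 57 bases, and in *Atp2a1* at 41 to 36 bases before the start. *Casq1* held CAGCTG at 222 to 217 bases, CAGGTG at 105 to 100 bases and the antioxidant response element, on the opposite strand, at 12 to 4 bases before the start. These matches are descriptions of sequence, and binding was not measured.

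A wider list of 73 other genes of calcium handling and excitability was taken by role. A probe matched for 64 of them, and 49 were tested. With GR24 against the control, 30 were lower and 5 were higher, with a median log2 fold change of -0.61, beside the 25.5% lower and 31.5% higher among all tested probes. A block for the replicate number raised the count from 35 to 38, and the share of all tested probes past the threshold from 57.1% to 66.6%. In a test of probes marked as above background on each of the 12 arrays, 31 of the 35 calls remained, and *Cacng6*, *Dysf* and *Atp2a3* were among those left out. By role as listed, where *Myot* and *Tcap* stand with the triad and *Rrad* with the reticulum, the decreases outnumbered the increases among channel subunits (5 lower and 1 higher of 6), release channels and their partners (4 and 1 of 8), genes listed with the triad and T-tubule (6 and 2 of 10) or with the reticulum (5 and 0 of 6) and pumps with their regulators (4 and 0 of 6). Store-operated entry had 2 lower and 1 higher of 6, sarcolemmal excitability 3 lower and 0 higher of 5, and calcium buffers 1 lower and 0 higher of 2.

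Among channel subunits, the gamma subunit *Cacng6* had no GR24 array well above background. Its fitted decrease was 12-fold (limma adjusted p = 1.04e-07), which is no lower bound, since its own dim signals set this value. The log2 fold change of *Cacng6* for GR24 minus control, -3.58, was -3.51 with quantile normalization and -1.74 with normexp of the median signal and the 75th percentile. In the deposited series table it was -2.46, so the value of -3.58 holds for the processed signal only. *Cacng6* entered the test through the other groups, where it was brighter. The beta subunit of the skeletal muscle channel, *Cacnb1*, had -1.98 (SE 0.080, adjusted p = 1.4e-08). *Cacna1c*, the pore-forming subunit of the heart channel, had -0.92 (SE 0.11) and *Cacna2d1*, which encodes the alpha-2/delta subunit, had -0.78 (SE 0.084). *Cacnb2*, the beta subunit best known from heart, moved up instead, with 0.73 (SE 0.13, adjusted p = 0.000693), or 0.30 with normexp and the 75th percentile. Among release channels, the inositol trisphosphate receptors parted, with 0.77 for *Itpr3* (SE 0.13, adjusted p = 0.000624) and -0.66 for *Itpr1* (SE 0.11, adjusted p = 0.000347). *S100a1*, which encodes a calcium sensor that binds the ryanodine receptor, had -0.63 (SE 0.088) and *Fkbp1b*, which encodes a protein bound to the same receptor, -0.39 (SE 0.062).

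Among the genes listed with the T-tubule, *Cav3*, which encodes the caveolin of muscle, had levels of 6.25, 6.36 and 6.16 in the control and 3.88, 3.88 and 3.68 with GR24. *Myot*, which encodes myotilin, a protein of the Z-disc, fell by 2.04 in log2 (SE 0.14, limma adjusted p = 5.72e-07). *Dysf*, which encodes the membrane repair protein dysferlin, had no GR24 array well above background. Its fitted decrease was 3.06-fold (limma adjusted p = 0.000104), which again is no lower bound and holds for the processed signal only. The log2 fold change of *Dysf* for GR24 minus control, -1.62, was -1.48 with quantile normalization and -0.52 with normexp of the median signal and the 75th percentile. In the deposited series table it was -0.79. Like *Cacng6*, *Dysf* entered the test through the other groups. Among the genes listed with the reticulum, *Jsrp1*, which encodes JP-45, a partner of the channel and of calsequestrin, had levels of 4.63, 4.64 and 4.43 in the control and 2.87, 2.82 and 2.84 with GR24. Its log2 fold change was -1.73 (SE 0.081, adjusted p = 4.06e-08). *Hrc*, which encodes a histidine-rich calcium-binding protein, had -1.33 (SE 0.088), *Tmem38b*, which encodes a potassium channel of the reticulum, -1.17 (SE 0.095) and *Rrad*, which encodes a small GTPase that binds calcium channel beta subunits, -0.83 (SE 0.12).

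Regulators of the pump fell with *Atp2a1*. *Sln*, which encodes sarcolipin, had levels of 4.91, 4.84 and 4.57 in the control and 1.99, 1.81 and 1.77 with GR24, which is a difference of -2.92 in log2 (SE 0.14, limma adjusted p = 4.01e-08). *Pln*, which encodes phospholamban, had levels of 3.11, 3.35 and 3.15 in the control and 1.09, 1.03 and 1.19 with GR24, which is a difference of -2.10 in log2 (SE 0.077, adjusted p = 7.8e-09). Both are peptides that restrain the pump. *Atp2a3*, another form of the pump, had -2.47 (SE 0.18), or -0.91 with normexp and quantile normalization. In store-operated entry, *Orai2* had -1.03 (SE 0.084) and *Orai3* 0.35 (SE 0.083), both genes of channel subunits, while *Trpc1* at -0.19 (adjusted p = 0.0495) held its call under 7 of 27 alternatives. At the surface membrane, *Atp1b1*, which encodes a beta subunit of the sodium pump, had -0.48 (SE 0.071), and among buffers the calcium-binding protein gene *S100a6* had -0.41 (SE 0.077).

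**Figure D3:**
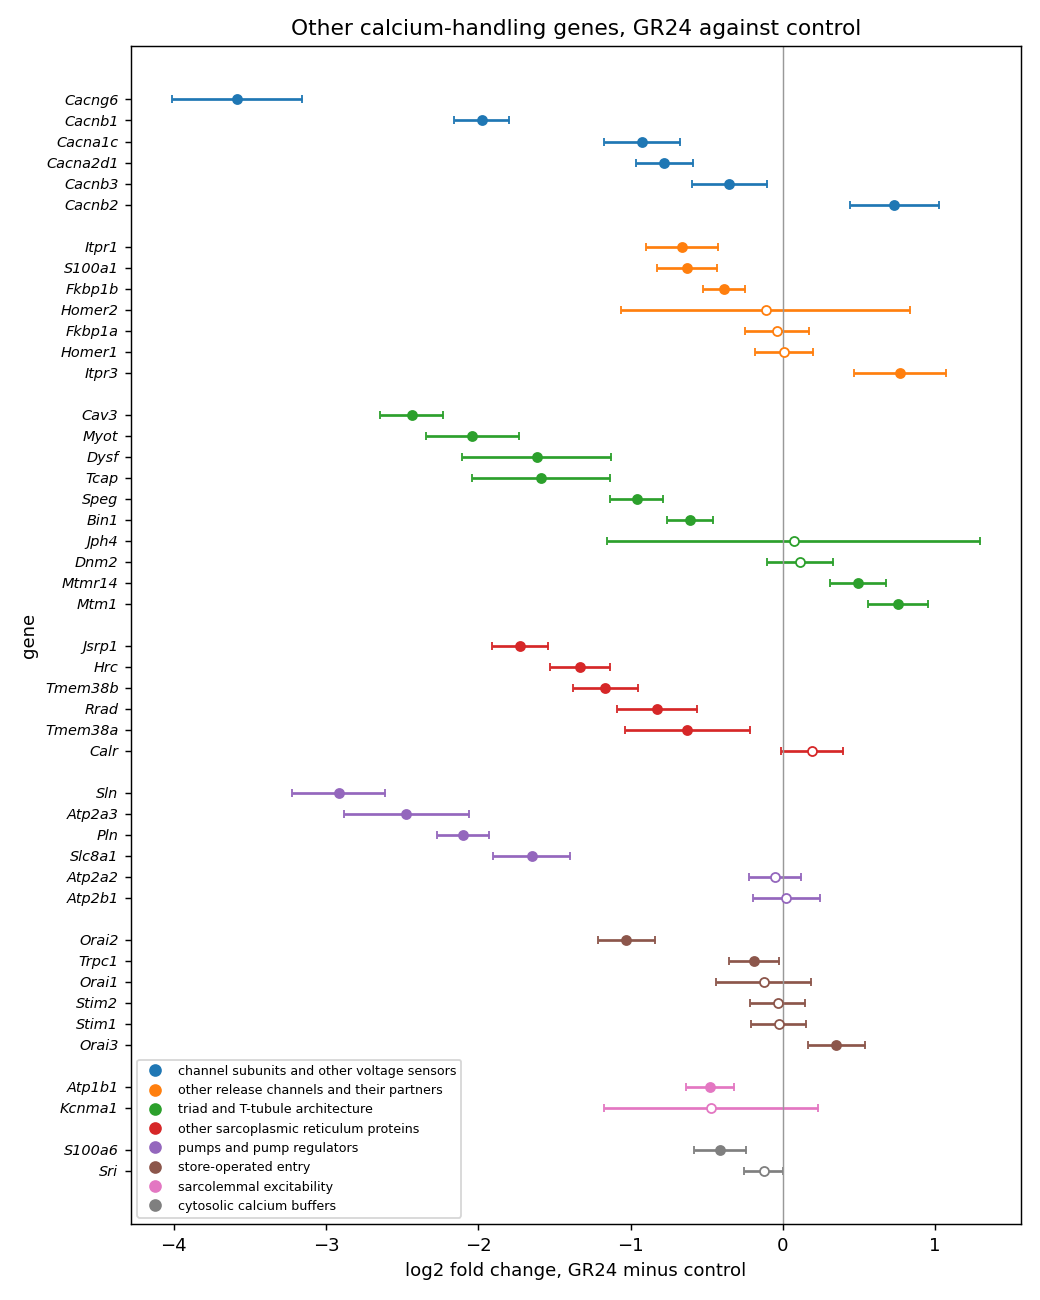
Log2 fold change between GR24 and the control for 45 of the 49 tested genes of the wider list, coloured by role, with bars for the 95% confidence interval and filled points for an adjusted p under 0.05 by limma. The fitted values run from -3.58 for *Cacng6* to 0.77 for *Itpr3*, and most filled points lie under 0. *Cacng6* had no GR24 array well above background, and its value was -1.74 with normexp and the 75th percentile.

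Some genes of the list gave different values with different probes, and they are named here after their values were seen. For *Atp2a2*, which encodes SERCA2, the brightest probe had a log2 fold change of -0.051 (limma adjusted p = 0.616) with GR24, and the other probes had -1.36 and -1.39 (adjusted p = 3.45e-08 and 7.49e-08). For *Slc8a1*, which encodes the sodium-calcium exchanger, the probes had -1.65 and -0.36, and for *Speg*, which encodes a kinase of the triad, -0.96 and -2.15. The probes of *Cacnb1* had -1.98, -2.04 and -0.55, those of *Pln* -2.10 and -3.43 (adjusted p = 3.55e-10 for the latter), and those of *Trpc1* -0.19, -0.24 and 0.20, of which only the first passed the threshold. Those of *Sri*, which encodes sorcin, had -0.13 and 0.58. Against the control, a dimmer probe of *Speg* (-0.82, limma adjusted p = 0.00826) and of *Atp2a2* (-0.24, 0.0265) passed with resveratrol. With pinosylvin a dimmer probe of *Cacnb1* passed (0.42, 0.042), and the brightest probes of these genes did not. Conversely, the tested dimmer probes of *Myot* with pinosylvin, and of *Orai2* and *Cacna2d1* with resveratrol, did not pass, where the brightest did. Which transcripts each probe reads was not tested, so the values of these genes are those of single probes.

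With pinosylvin against the control, 5 genes of the wider list were lower and 7 were higher, with a median of 0.10, where 8.27% of all tested probes were lower and 8.28% were higher. Among the higher genes were *S100a1* (log2 fold change 0.63), *Sln* (0.52), *Myot* (0.48), *Atp1b1* (0.45), *Jsrp1* (0.32) and *Pln* (0.30). These fell with GR24. Among the lower genes were *Rrad* (-0.41), *Cacna1c* (-0.40), *Sri* (-0.32) and *Fkbp1b* (-0.32). The calls of *S100a1*, *Atp1b1*, *Sri* and *Fkbp1b* held under each alternative that gave a test, whereas those of *Sln*, *Myot*, *Jsrp1*, *Pln*, *Rrad* and *Cacna1c* were each lost when at least 1 array was left out, among them pinosylvin replicate 1. In the fit with the replicate number as a block the count rose from 12 to 20, and the share of all tested probes past the threshold from 16.6% to 28.6%. The count was 5 without pinosylvin replicate 1 or 2, 6 without control replicate 3 and 7 without control replicate 1.

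With resveratrol against the control, 8 genes of the wider list were lower and 1 was higher, with a median of -0.11, where 8.99% of all tested probes were lower and 7.99% were higher. The lower genes were *Hrc* (log2 fold change -0.55), *S100a6* (-0.51), *Jsrp1* (-0.49), *Cacna2d1* (-0.48), *Rrad* (-0.47), *Orai2* (-0.35), *Fkbp1b* (-0.33) and *Cav3* (-0.32), and the higher gene was *Cacnb2* (0.74, or 0.23 with normexp and quantile normalization). The calls of *Rrad*, *Orai2* and *Cav3* were lost when 1 array was left out, among them control replicate 1, and the others held under each alternative that gave a test. The count of 9 was 6 without control replicate 1, control replicate 2 or resveratrol replicate 3. The replicate block raised it to 16, and the share of all tested probes past the threshold from 17.0% to 27.9%. Between the stilbenes, 10 genes of the list were higher with pinosylvin and 2 were lower, where 7.68% of all tested probes were higher and 6.85% were lower. The count of 12 fell to 7 without pinosylvin replicate 2. Under the replicate block it rose to 16, with *Homer2*, *Bin1*, *Myot* and *Orai2* added, and the share of all tested probes past the threshold rose from 14.5% to 26.0%. Among the higher genes were *Jsrp1* and *Hrc*, with log2 fold changes of 0.81 and 0.81 (limma adjusted p = 0.000146 and 0.000251). Against pinosylvin and against resveratrol, GR24 had 27 and 27 genes of the list lower and 6 and 4 higher, where 26.8% and 23.9% of all tested probes were lower and 29.6% and 27.4% were higher. The replicate number as a block added *Homer2* and *Dnm2* against pinosylvin and *Dnm2* against resveratrol, while the shares of all tested probes past the threshold rose from 56.4% to 66.6% and from 51.4% to 61.2%.

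Markers of cell types that such a culture could hold were read on the same arrays. Of 12 markers of skeletal muscle differentiation, 9 had a probe, and all 9 were well above background on the 3 control arrays, so defining markers of the labelled cell type were present. *Mymk*, *Mef2c* and *Ttn* had no matched probe. With GR24, 8 of the 9 were lower and 0 were higher, and the desmin gene *Des*, at -0.089, did not pass the threshold, where 25.5% of all tested probes were lower. *Myog*, which encodes the differentiation factor myogenin, had -5.83 (SE 0.14, limma adjusted p = 5.53e-10). *Myod1* was at least 3.21-fold lower in processed signal, with no GR24 array well above background, so that it entered the test through other groups. *Acta1* had -3.88 (SE 0.077) and *Ckm* -2.58 (SE 0.14). With pinosylvin 3 of the 9 were higher and 0 lower, where 8.28% of all tested probes were higher, and with resveratrol 6 were lower and 0 higher, where 8.99% of all tested probes were lower. Between the stilbenes, 8 were higher with pinosylvin, where 7.68% of all tested probes were.

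The summed level of these muscle markers, as signal relative to the 75th percentile, was 806 to 939 on the control arrays, 363 to 379 with GR24, 959 to 1005 with pinosylvin and 692 to 714 with resveratrol. Its brightest gene was *Myh3* on all arrays. The groups came in the order found for the means of 5 of the 8 members, and the part of muscle differentiation in the changes of the members was not tested. Of the markers of cycling cells, 4 of the 4 tested were lower with each compound against the control, where 25.5% of all tested probes were lower with GR24, 8.27% with pinosylvin and 8.99% with resveratrol. Their summed level was 67.0 to 73.0 in the control, 17.5 to 19.1 with GR24, 27.9 to 29.3 with pinosylvin and 39.6 to 44.0 with resveratrol, with *Cdk1* as the brightest gene. With pinosylvin 3 of the 8 members were higher and these 4 markers lower, and the part of cell cycling in the members' changes was not tested.

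Of 10 markers of undifferentiated myoblasts 8 were tested, and with GR24 2 were lower (*Cdh15* and *Myf5*) and 2 were higher (*Id2* and *Hes1*). For this and the next lists, 25.5% of all tested probes were lower with GR24 and 31.5% were higher. The summed level of the 9 with a probe was 25.2 to 28.5 in the control and 16.7 to 17.7 with GR24, with *Pax3* as the brightest gene. It was 23.9 to 25.4 with pinosylvin and 22.9 to 25.7 with resveratrol. Of 8 fibroblast markers 7 were tested, and 6 were lower and 1, *Pdgfra*, was higher with GR24. The summed level of all 8 was 241 to 258 in the control, 105 to 116 with GR24, 216 to 220 with pinosylvin and 210 to 227 with resveratrol, and *Col3a1* was the brightest gene. Of 6 smooth muscle markers 4 were tested, and 3 were lower with GR24. The sum of all 6 was 192 to 217 in the control, 67.6 to 77.9 with GR24, 192 to 213 with pinosylvin and 188 to 223 with resveratrol, with *Tagln* as the brightest gene. *Cnn1*, a smooth muscle marker, was well above background on 0 of 12 arrays. Of 7 cardiac markers 3 were tested and all 3 were lower with GR24. Among them was *Tnni3*, which had no GR24 array well above background and was at least 7.19-fold lower in processed signal. *Tnni3* thus entered the test through the other groups. The summed level of all 7, the 4 untested ones included, was 2.42 to 3.15 in the control, 0.78 to 1.10 with GR24, 3.36 to 4.10 with pinosylvin and 2.17 to 2.37 with resveratrol. *Myh6* was the brightest of them, and *Nppa*, *Nkx2-5* and *Gata4* were well above background on no array. Whether other cell types had a part in the changes of the members was not tested.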

How the data were processed

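RNA of 12 cultures was measured on Agilent arrays of 1 colour, 3 per group. The day of differentiation is that of the sample labels, from which the study's own methods differ. The authors deposited the scanner output of Feature Extraction 12.0.0.7, whose processed signal is an intensity, corrected for background on each array and not normalized between arrays. The deposited files also hold other values, among them the median signal of each spot and marks for outlier spots, saturation and signal well above background. A table deposited for the whole series gives normalized values on a log2 scale for 25848 probes. Its filter and normalization are not stated, its column medians were 9.21 to 9.24, and it served as an alternative.

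Processed signals were put on a log2 scale, spots marked as outliers were set to missing, spots of 1 probe were averaged, and the 75th percentile of each array over probes was subtracted. This percentile was at first taken over all spots and was changed after the calls of both had been seen. The test covered the 24279 of 45598 probes that the 3 arrays of some group all marked as well above background. Among these, 87.4% carried that mark on every one of the 12 arrays. All 12 arrays entered 1 fit of limma 3.58.1 in R 4.3.3 with a mean per group, lmFit and eBayes, and Benjamini-Hochberg adjustment within each of 6 comparisons. The limma fit was tested on simulated data. A bound is the mean of the brighter group against, per array of the other group, its signal or the lowest signal marked as well above background, whichever is higher. It holds for the processed signal only, and probes brighter than that lowest signal could still lack the mark. Genes were named by RefSeq accession from a table of the assembly GRCr8, and 21109 probes (46.3%) received a name.

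The members and all gene lists were chosen with earlier results of these data known. All members are named, and of the wider list those past the threshold with GR24 that had the 3 largest changes of their role, together with any past it for pinosylvin or resveratrol against the control. The 5 genes most like the members were ranked by Pearson's r. A few genes named by these rules are not reported here.

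Whether the replicate numbers pair the cultures was read from the data. With each group mean subtracted, arrays of different groups with the same number had r of 0.23 to 0.83 over 21202 probes (median 0.57, all 18 pairs above 0.1), and arrays with other numbers had -0.77 to 0.61. Since the deviations within a group cancel out, a positive r with some array of a group forces a negative r with another. Part of this contrast is thus built in. For 9 of the 12 arrays, the mean r with arrays of other groups was highest for those of the same number. The study's methods describe 3 independent experiments, so the numbers may mark pairs, but the main fit has no block for them. The fit with the replicate number as a block is given beside results of the members and of the wider list where it changed calls. Replicate 3 was also the other slide, and every negative r was between a replicate 3 array and an array with another number. Among arrays of slide 1 in different groups, r was 0.23 to 0.61 for the same number and 0.28 to 0.61 for other numbers. These r therefore do not separate pairing by number from the slide.

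The alternatives were quantile normalization, normexp (offset 50) with either scaling, the deposited table, a test without the filter on dim probes, a test of probes well above background on 12 of 12 arrays or a percentile taken over these, fits of only the 6 arrays compared, a block for the replicate number or for the slide, each slide alone, eBayes with trend and robust settings, the mean over probes of a gene, outlier spots kept, and each array left out in turn. The percentile over all spots, which was the first scaling, was made an alternative after seeing the data, when the main scaling replaced it. Normexp used the median signal of each spot, since the files hold no mean signal.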

Additional observations from a re-analysis of the deposited data

How the results depend on the processing

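For GR24 against the control, all 7 calls of members kept their direction and stayed past the threshold under each of the 27 alternatives with a test, among them each array left out in turn, and *Stac3* ranged from -5.28 to -3.78 (log2). Over the members' fold changes in the 6 comparisons, 1266 values under an alternative were counted as unchanged. Of the others, 40 lost their call, 14 gained one and 20 changed sign. Another 4, from slide 2 and with no test, moved by more than the spread between replicates. Unchanged meant the same direction and side of the threshold, or for values of slide 2, which have no test, a move within that spread.

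The count of 4 members lower with resveratrol than in the control was 2 with no filter on dim probes, where more probes were tested, 3 with only the 6 arrays compared, where *Cacng1* was lost, and 2 to 4 with 1 array left out. It was 3, with *Trdn* lost, under quantile normalization, normexp with either scaling, the deposited table and the mean over probes of a gene. The count of 5 between pinosylvin and resveratrol was 8 with the replicate number as a block. The wider list's count of 12 for pinosylvin against the control was 5 with no filter, 5 with only the 6 arrays compared, 20 with the replicate block, 19 with the slide as a block, and 5 to 12 with 1 array left out. Its count of 9 for resveratrol was 6 with no filter, 6 with only the 6 arrays compared, 16 with the replicate block, 15 with the slide as a block, and 6 to 11 with 1 array left out. Its count of 12 between the stilbenes was 7 with no filter, 16 with the replicate block, 17 with the slide as a block, and 7 to 12 with 1 array left out. Beyond the calls given here and beside the results, the replicate block changed no call of a member and, in the wider list for GR24 against the control, ended no call and added some, *Calr* and *Sri* among them.

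The share of all tested probes past the threshold, beside which the counts are set, moved as well. It was 16.6% for pinosylvin against the control, and 11.6% to 16.9% with 1 array left out, 10.2% with only the 6 arrays compared and 5.28% of more probes with no filter. For resveratrol it was 17.0%, and 11.8% to 17.8%, 11.7% and 5.88% in the same order, and between the stilbenes 14.5%, and 8.85% to 15.2%, 10.6% and 4.33%.

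The values that changed sign were near 0 and past no threshold, and the cause was not tested. *Jph2* with resveratrol, 0.0055, was -0.0121 with quantile normalization, -0.0148 with normexp and the 75th percentile, -0.0212 with normexp and quantile normalization, -0.00904 in the deposited table, -0.00865 with the percentile over probes well above background on all arrays, -0.0212 on slide 1, -0.00266 with the percentile over all spots, the first scaling, which was replaced after seeing the data, and -0.0931 to 0.0840 with 1 array left out. *Casq2* with pinosylvin, 0.0082, was -0.0929, -0.00981, -0.107, -0.0828, -0.00962 and -0.0193 under the first 6 of these settings in the same order, and -0.0767 to 0.0751 with 1 array left out. *Trdn* with pinosylvin, -0.15, was 0.0021 without pinosylvin replicate 3 and -0.24 without pinosylvin replicate 2, and -0.38 at its lowest, with the mean over its probes.

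Signal over background limits the values of *Jph1*, of the second probe of *Trdn*, of *Cacng6* and *Dysf*, and of the genes given as bounds. With normexp and in the deposited table, the changes of *Cacng6* and *Dysf* were smaller than those given with the main settings.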
